A study of Zea mays with 8 samples.

Results

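RNA levels in post-meiotic anthers of maize (Zea mays) were compared between hda108 mutants and wild-type (WT) plants. HDA108 encodes a histone deacetylase, and the mutants carried the hda108 allele on both chromosomes (hda108/hda108). A gene entered the comparison when its level reached 1 FPKM (fragments mapped to the gene, scaled to transcript length and library size) in either genotype, which kept 23904 of the 39604 genes measured. The labels do not give the nature of the mutation or the inbred background. Plants were grown in the field, and each group consisted of 2 libraries of ribosomal RNA-depleted, strand-specific total RNA, each from anthers pooled over several tassels of 1 genotype. The deposited values give 1 FPKM per gene and group. The spread between the 2 libraries is therefore unknown, no difference below has a replicate check, and sequencing depth is unknown. Whole anthers were measured, so fewer cells of a type and less RNA per cell cannot be told apart in any of the differences.

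Histone deacetylases remove acetyl groups from histone tails, a change usually found at genes of low transcription, and the class to which HDA108 belongs acts in multi-protein complexes on many loci. After meiosis, the anther holds microspores inside a locule lined by the tapetum, a secretory layer that feeds them and supplies wall material. As microspores divide and become pollen, RNAs for pollen tube growth, wall loosening and starch filling come to make up much of the anther's RNA.

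Differences are given as log2(FPKM + 1) in hda108 minus WT. This scale understates the change of genes with low FPKM, so each fold below divides one FPKM by the other, and genes listed at 0 in a genotype get no fold. A gene is called higher or lower when the difference reached 2, a 4-fold difference for abundant genes. Of the genes tested, 410 were higher (1.72%) and 1090 lower (4.56%) in hda108, 6.28% in all. The FPKM of all genes summed to 701133 in hda108 and 1069800 in WT. With both genotypes rescaled to the same sum, 823 genes were higher (3.44%) and 663 lower (2.77%), and the median difference of all genes was 0.50 in place of -0.03. For some gene lists below, the median is therefore also given against that of all genes, which the rescaling moves with it. Of 50 lists with at least 3 tested genes, equal sums turned the median of 1 to the other side of that of all genes.

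HDA108 itself (GRMZM2G136067, chromosome 4, 65983217 to 65988818, B73 RefGen_v3) had 4.10 FPKM in hda108 and 12.3 FPKM in WT, a difference of -1.39, or -0.87 with equal sums. Of the genes tested, 2015 (8.43%) had a difference as low as this or lower. The size rule did not call it, and since the labels do not say where the mutation lies, its level is a weak check of the genotype. The anther identity of both samples was read from the more abundant of 4 tested tapetum and anther development genes. These were the tapetum regulators ms23 and ms32, bHLH transcription factors needed for male fertility. ms23 had 21.8 FPKM in hda108 and 46.7 FPKM in WT, and ms32, whose ID is assigned to 2 genes, had 52.3 FPKM in hda108 and 84.2 FPKM in WT. The less abundant ms26 had 3.28 FPKM in hda108 and 5.64 FPKM in WT (named after its values were seen). ms8 went the other way, with 7.02 FPKM in hda108 and 0.608 FPKM in WT, so this check rests on few genes. Of 16 zein and seed storage genes, 2 were tested and neither was called. The summed level of the 22 tested photosynthesis genes was 6019 FPKM in hda108 and 6423 FPKM in WT, led by the chlorophyll-binding protein gene Cab-m7 with 1450 FPKM in hda108 and 1795 FPKM in WT. As a share of each genotype's sum the list held 0.858% in hda108 and 0.600% in WT, so its summed level lay below WT in the deposited values and above it with equal sums. What part a different make-up of cell types had in the differences below was not tested.

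The direction of the differences depended on abundance. Among the 12270 genes with a mean of the genotypes below 10 FPKM, 227 were higher (1.85%) and 234 lower (1.91%). Between 10 and 100 FPKM, 145 of 10137 genes were higher (1.43%) and 570 lower (5.62%). Between 100 and 1000 FPKM, 35 of 1401 were higher (2.50%) and 245 lower (17.5%), and of the 96 genes at 1000 FPKM or more, 3 were higher (3.13%) and 41 lower (42.7%). With equal sums the lower share still increased along these classes, from 1.26% through 3.39% and 10.7% to 14.6%. The higher share was then 4.03%, 2.68%, 3.64% and 5.21%. Below 10 FPKM, equal sums thus gave 495 higher and 155 lower genes. The lower genes held 43961 FPKM in hda108 and 304954 FPKM in WT, 6.27% and 28.5% of the sums. The 22404 genes the rule did not call held 621942 FPKM in hda108 and 761127 FPKM in WT. The higher genes held 33156 FPKM in hda108 and 2069 FPKM in WT, 4.73% and 0.193% of the sums. The rule chose these genes by their difference, so their sums describe how much RNA was involved and are not a test. By most measures RNA was also spread over more genes in the mutant, where the 1040 most abundant genes made up 50% of the FPKM, against 589 genes in WT. The 100 most abundant genes held 20.1% in hda108 and 26.0% in WT. At the very top this was reversed, and the 10 most abundant genes held 7.70% in hda108 and 6.75% in WT.

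**Figure D1:**
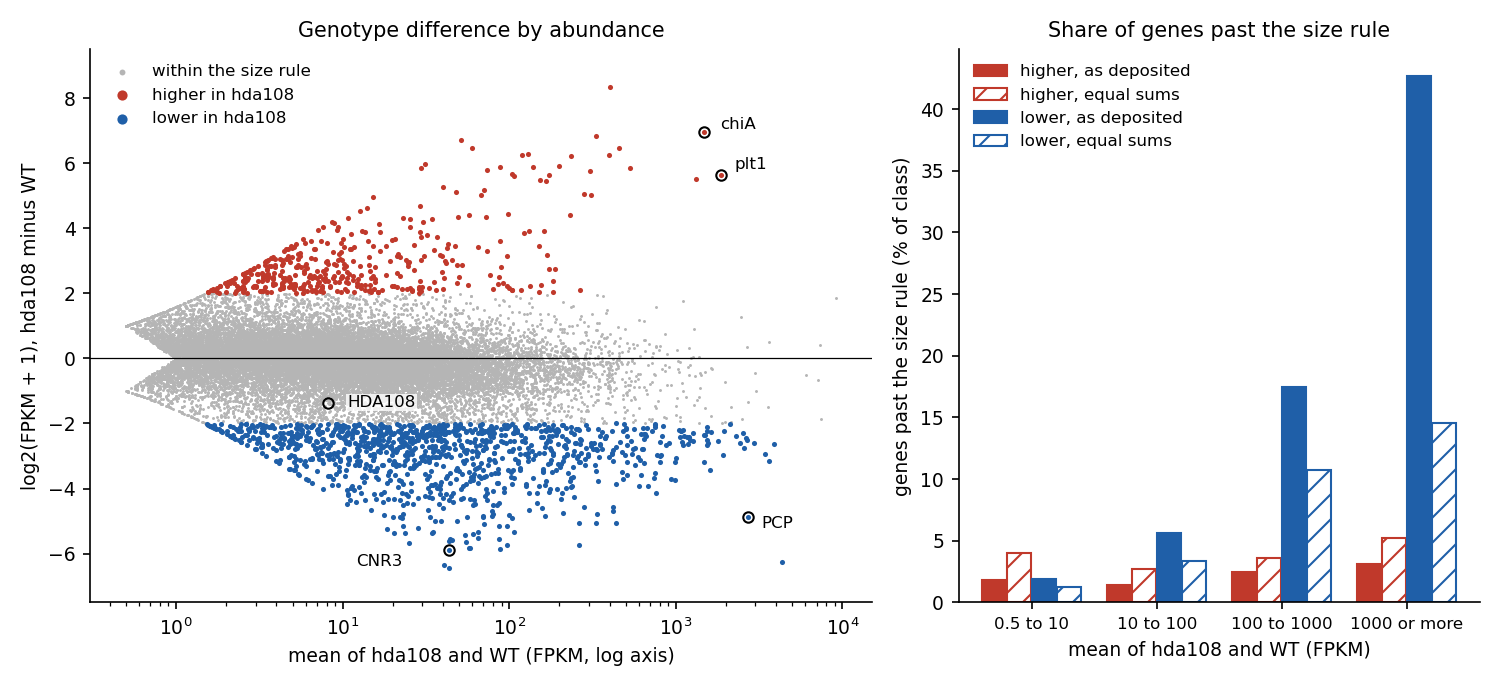
Left, each point is a gene, with the mean FPKM of the genotypes (log axis) against log2(FPKM + 1) in hda108 minus WT. Right, the share of genes called higher or lower in each class of mean FPKM, for the values as deposited (filled) and with equal sums (hatched). As deposited, the lower share climbs from 1.91% in the class below 10 FPKM to 42.7% in the class at 1000 FPKM or more. The higher share stays between 1.43% and 3.13% as deposited and between 2.68% and 5.21% with equal sums.

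Stepwise rules gave 1809 higher and 3149 lower genes at a difference of 1, 134 and 378 at 3, 51 and 127 at 4, and 31 and 34 at 5. With equal sums the steps gave 4735 higher and 1836 lower genes at 1, 235 and 226 at 3, 82 and 69 at 4, and 37 and 20 at 5, so which direction held more genes depended on the scaling at each of the 5 steps. Just inside the rule lay GRMZM2G055883, with 9.05 FPKM in hda108 and 1.51 FPKM in WT, and BCH2 (GRMZM2G152135), with 175 FPKM in hda108 and 704 FPKM in WT. Just outside lay GRMZM2G056513, with 27.2 FPKM in hda108 and 6.06 FPKM in WT, and GRMZM2G014618, with 13.6 FPKM in hda108 and 57.5 FPKM in WT.

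Defence genes made up 6 of the 10 named genes that stood farthest above WT. All 4 tested chitinases, enzymes that cut fungal cell wall chitin, were higher, against 1.72% of all genes. Their summed level was 3850 FPKM in hda108 and 66.5 FPKM in WT. chiA had 2928 FPKM in hda108 and 22.8 FPKM in WT, 128-fold higher. chn1 had 604 FPKM in hda108 and 17.7 FPKM in WT, 34.2-fold higher. The list median was 4.43, and 4.53 above that of all genes with equal sums. The least of the 4, chiB, had 86.4 FPKM in hda108 and 10.9 FPKM in WT, so each chitinase was called.

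Both tested beta-glucanase genes were higher. geb1 had 119 FPKM in hda108 and 0.361 FPKM in WT, and glucA, also named Gns1, had 393 FPKM in hda108 and 5.51 FPKM in WT. They lie on chromosome 3, geb1 at 152010336 to 152011716 and glucA at 151858688 to 151860775. All 5 tested genes of pathogenesis-related and thaumatin-like proteins were higher, a list that counts geb1 again, with a median of 3.48. sip1, also named Zlp for a zeamatin-like protein, had 175 FPKM in hda108 and 2.00 FPKM in WT. PR-1 had 12.9 FPKM in hda108 and 0.685 FPKM in WT, PR-5 had 50.2 FPKM in hda108 and 3.59 FPKM in WT, and PR10 had 22 FPKM in hda108 and 3.82 FPKM in WT. The summed level of the 5 was 378 FPKM in hda108 and 10.5 FPKM in WT.

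Proteinase inhibitors, which block digestive enzymes of herbivores or the plant's own proteases, held 3 higher and 0 lower genes of 9 tested. The wound-induced inhibitor wip1 had 789 FPKM in hda108 and 9.48 FPKM in WT, 83.3-fold higher. MPI had 135 FPKM in hda108 and 12.9 FPKM in WT, 10.4-fold higher. The cystatin gene cc6 had 7.92 FPKM in hda108 and 0.50 FPKM in WT, while the other 6 cystatins were not called. The ribosome-inactivating protein gene rip2 (GRMZM2G119705) had 300 FPKM in hda108 and 5.72 FPKM in WT, 52.5-fold higher.

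In the list of jasmonate and oxylipin synthesis, where lipoxygenases oxidise fatty acids, 4 of 29 genes were higher and 0 lower, with a median of 0.65. The list also took in genes named TIFY or JAZ, which are not synthesis enzymes, so its median is not that of synthesis genes alone. None of the TIFY or JAZ genes was called. lox10 had 93.8 FPKM in hda108 and 1.76 FPKM in WT. lox1 had 111 FPKM in hda108 and 4.24 FPKM in WT. The other called members were lox6, with 49.4 FPKM in hda108 and 8.66 FPKM in WT, and opr6, an oxophytodienoate reductase-family gene with 10.4 FPKM in hda108 and 1.72 FPKM in WT. The most abundant member, lox3, was nearly level at 423 FPKM in hda108 and 453 FPKM in WT. Below WT without being called stood lox4, with 40.7 FPKM in hda108 and 155 FPKM in WT, and ts1, the lipoxygenase of the tasselseed1 locus that acts in sex determination of the tassel, with 164 FPKM in hda108 and 251 FPKM in WT (both named after their values were seen). Lipoxygenase genes thus stood on both sides, and the summed level of the list was 1771 FPKM in hda108 and 1861 FPKM in WT.

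Of 19 genes listed by symbol under benzoxazinoid and terpene synthesis, pathways of antimicrobial and anti-herbivore compounds, 3 were higher and 0 lower. The symbol TPS alone does not show that each gene carrying it is a terpene synthase gene, so some members may not belong. BX14, an enzyme that modifies benzoxazinoid glucosides, had 32.4 FPKM in hda108 and 1.27 FPKM in WT, 25.5-fold higher. The terpene synthase gene tps6 had 44.5 FPKM in hda108 and 5.01 FPKM in WT, and TPS9 (GRMZM2G465812) had 9.90 FPKM in hda108 and 0.0483 FPKM in WT. Another ID named TPS9 (GRMZM2G122231), on chromosome 5 and not 10, had 70.9 FPKM in hda108 and 79.3 FPKM in WT. The shared name does not show that the 2 IDs are related genes. Other stress lists held few calls. Of 26 glutathione transferases, 0 were higher and 1 was lower, gst30, with 24.7 FPKM in hda108 and 119 FPKM in WT, which was no longer called with equal sums. None of 11 peroxidase and antioxidant genes, 22 genes of heat shock proteins and heat shock transcription factors, or 7 cysteine protease and nuclease genes was called. Those lists had medians of 0.07, 0.11 and -0.20.

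The other 4 named genes among the 10 farthest above WT were plt1, kin1, AGA1 and an ID assigned to more than 1 gene. The phospholipid transfer protein gene plt1 (chromosome 10, 4168396 to 4169548) had 3666 FPKM in hda108 and 73.1 FPKM in WT, 50.1-fold higher. It was the most abundant gene of its list, and the other 5 lipid transfer and cuticle genes were not called. kin1 (chromosome 7, 176260710 to 176262411) had 2599 FPKM in hda108 and 56.1 FPKM in WT, 46.3-fold higher. The alkaline alpha-galactosidase gene AGA1 (chromosome 7, 19063720 to 19101243) had 1051 FPKM in hda108 and 17.4 FPKM in WT. Its relative AGA3b was lower, with 8.61 FPKM in hda108 and 47.0 FPKM in WT, a call that equal sums ended. The ID GRMZM2G090245, with 661 FPKM in hda108 and 4.80 FPKM in WT, is assigned to 2 genes, ALDH12 and mis1, so which of them it measured is uncertain. The largest difference of all belonged to the unnamed GRMZM2G700208 (chromosome 10, 33357028 to 33360934), with 808 FPKM in hda108 and 1.52 FPKM in WT.

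**Figure D2:**
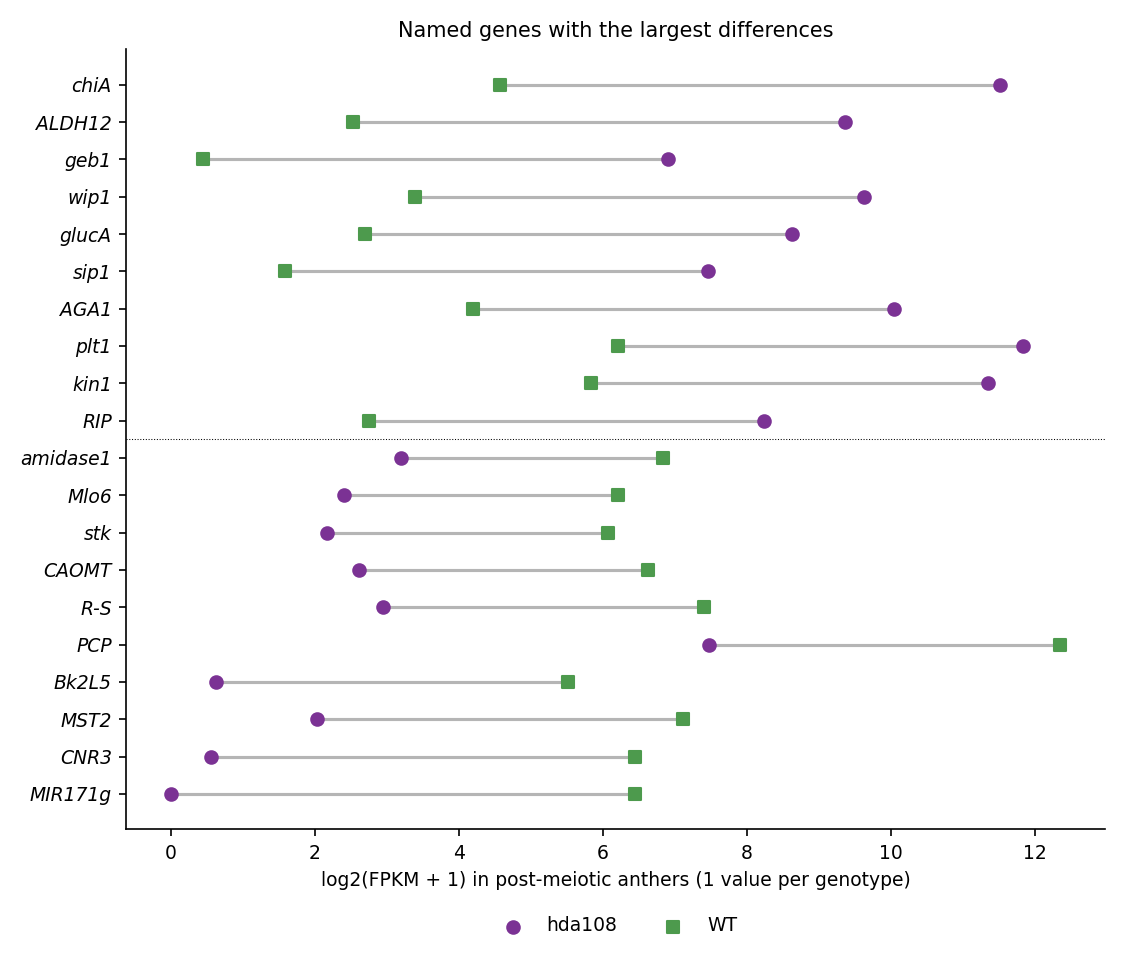
The 10 named genes farthest above WT and the 10 farthest below it, drawn by their log2(FPKM + 1) in hda108 (circles) and WT (squares), 1 value per genotype. In the upper block hda108 reaches values of up to 3666 FPKM (plt1). In the lower block PCP is the most abundant, with 177 FPKM in hda108 and 5236 FPKM in WT.

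Of 15 named genes of pollen maturation and the pollen tube, 0 were higher and 6 lower, against 4.56% of all genes, with a median of -1.75. With equal sums 3 were still lower while the median stayed 1.65 below that of all genes. The summed level was 2128 FPKM in hda108 and 14257 FPKM in WT. The lower share of all genes depended on abundance, which limits this comparison. PCP, mgs1 and mgs2 had means of 1000 FPKM or more, where 42.7% of genes were lower. MST2, stk1 and rop6 (named after its values were seen) had means between 10 and 100 FPKM, where 5.62% were. Called lower genes of the actin-binding, expansin and pectin lists below had means of at least 100 FPKM. There 17.5% of genes were lower, or 42.7% from 1000 FPKM. PCP had 177 FPKM in hda108 and 5236 FPKM in WT, 29.6-fold lower. The sugar transporter gene MST2 (chromosome 4, 29873532 to 29875971) had 3.07 FPKM in hda108 and 137 FPKM in WT, 44.8-fold lower. stk1, a receptor-like kinase of pollen, had 3.51 FPKM in hda108 and 66.4 FPKM in WT, 18.9-fold lower. The male gametophyte-specific genes mgs1 and mgs2 were also lower in the deposited values, mgs1 with 833 FPKM in hda108 and 5076 FPKM in WT, and mgs2 with 579 FPKM in hda108 and 2497 FPKM in WT. Neither stayed past the rule with equal sums. The small GTPase genes named rop, which steer tip growth in pollen tubes, ranged over both directions (named after their values were seen). rop2 had 146 FPKM in hda108 and 439 FPKM in WT, and rop4 (GRMZM2G375002) had 44.2 FPKM in hda108 and 24.9 FPKM in WT.

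Of 10 actin-binding and profilin genes, which organise the pollen cytoskeleton, 3 were lower and 0 higher, with a median of -1.01. ABP2, an actin-depolymerising factor gene, had 62.7 FPKM in hda108 and 476 FPKM in WT. ABP1 had 66.0 FPKM in hda108 and 373 FPKM in WT, and the profilin gene PRO3 had 835 FPKM in hda108 and 3372 FPKM in WT. With equal sums ABP2 alone of the 3 was still called. Within the family, profilins of high level in WT were below it, while PRO4 had 50.1 FPKM in hda108 and 49.3 FPKM in WT (named after its values were seen). Of 12 tubulin genes tested, 0 were called. The values of 9 lay below those of WT, or of 7 with equal sums, against 52.2% of all genes, or 25.5% with equal sums. The median was -0.80, or 0.70 below that of all genes with equal sums. The most abundant, tua4, had 446 FPKM in hda108 and 872 FPKM in WT.

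Cell wall genes of pollen followed. Of 11 expansins, wall-loosening proteins, 4 were lower and 1 higher. The 4 lower ones were the beta-expansins EXPB10, EXPB11, EXPB9 (also named EXPB1B) and EXPB1, a group known as abundant grass pollen allergens. EXPB10 had 178 FPKM in hda108 and 1421 FPKM in WT, 7.96-fold lower. EXPB11 had 115 FPKM in hda108 and 766 FPKM in WT. EXPB9 had 442 FPKM in hda108 and 2665 FPKM in WT, and EXPB1 had 481 FPKM in hda108 and 2463 FPKM in WT. EXPB10 and EXPB11 were still called with equal sums. The higher member, expB6, had 17.6 FPKM in hda108 and 2.24 FPKM in WT, and the other 6 were not called, so the family did not move as a whole. Its median lay 0.22 below that of all genes with equal sums and above it after quantile normalization. The labels do not say how reads of near-identical copies were assigned, and values of single pollen expansins and profilins are uncertain in that respect. Of 4 pectin enzyme genes, 3 were lower and the fourth, gla3, had 471 FPKM in hda108 and 1639 FPKM in WT. The pectin methylesterase gene pme1, also named C5, had 96.1 FPKM in hda108 and 736 FPKM in WT. The polygalacturonase gene PG14 had 204 FPKM in hda108 and 918 FPKM in WT, and ExoPG had 57.9 FPKM in hda108 and 276 FPKM in WT. With equal sums pme1 alone of the 3 was still called.

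Starch synthesis genes, whose product fills maturing pollen, had no call. All 11 tested members were below WT in the deposited values, with a median of -0.73, and 7 of them with equal sums, where the median was 0.67 below that of all genes. Of all genes, 52.2% were below WT, or 25.5% with equal sums. GBSS1, the granule-bound starch synthase of the waxy locus, had 243 FPKM in hda108 and 897 FPKM in WT. The small-effect end of the list was GBSSIIa, with 6.13 FPKM in hda108 and 7.32 FPKM in WT (named after its values were seen). Of 13 genes of sugar transport, invertases and sucrose synthases, MST2 was lower and incw1, a cell wall invertase gene, was higher, with 13.9 FPKM in hda108 and 1.68 FPKM in WT. The list median was 0.04.

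Meiosis and tapetum genes held 1 call. None of 13 genes listed by symbol under meiosis was called, and their differences spanned -0.62 to 0.61 with a median of 0.05. The symbol MSH1 alone does not show that the IDs carrying it act in meiosis. GRMZM2G129889 and GRMZM2G129913, named Spo11-1, are each also assigned to PHYC, so some members may not belong. Of 4 tapetum and anther development genes, ms8 was higher, with 7.02 FPKM in hda108 and 0.608 FPKM in WT, and ms23, ms26 and ms32 were below WT without being called. ms26, a cytochrome P450 needed for the pollen wall, had 3.28 FPKM in hda108 and 5.64 FPKM in WT (named after its values were seen).

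**Figure D3:**
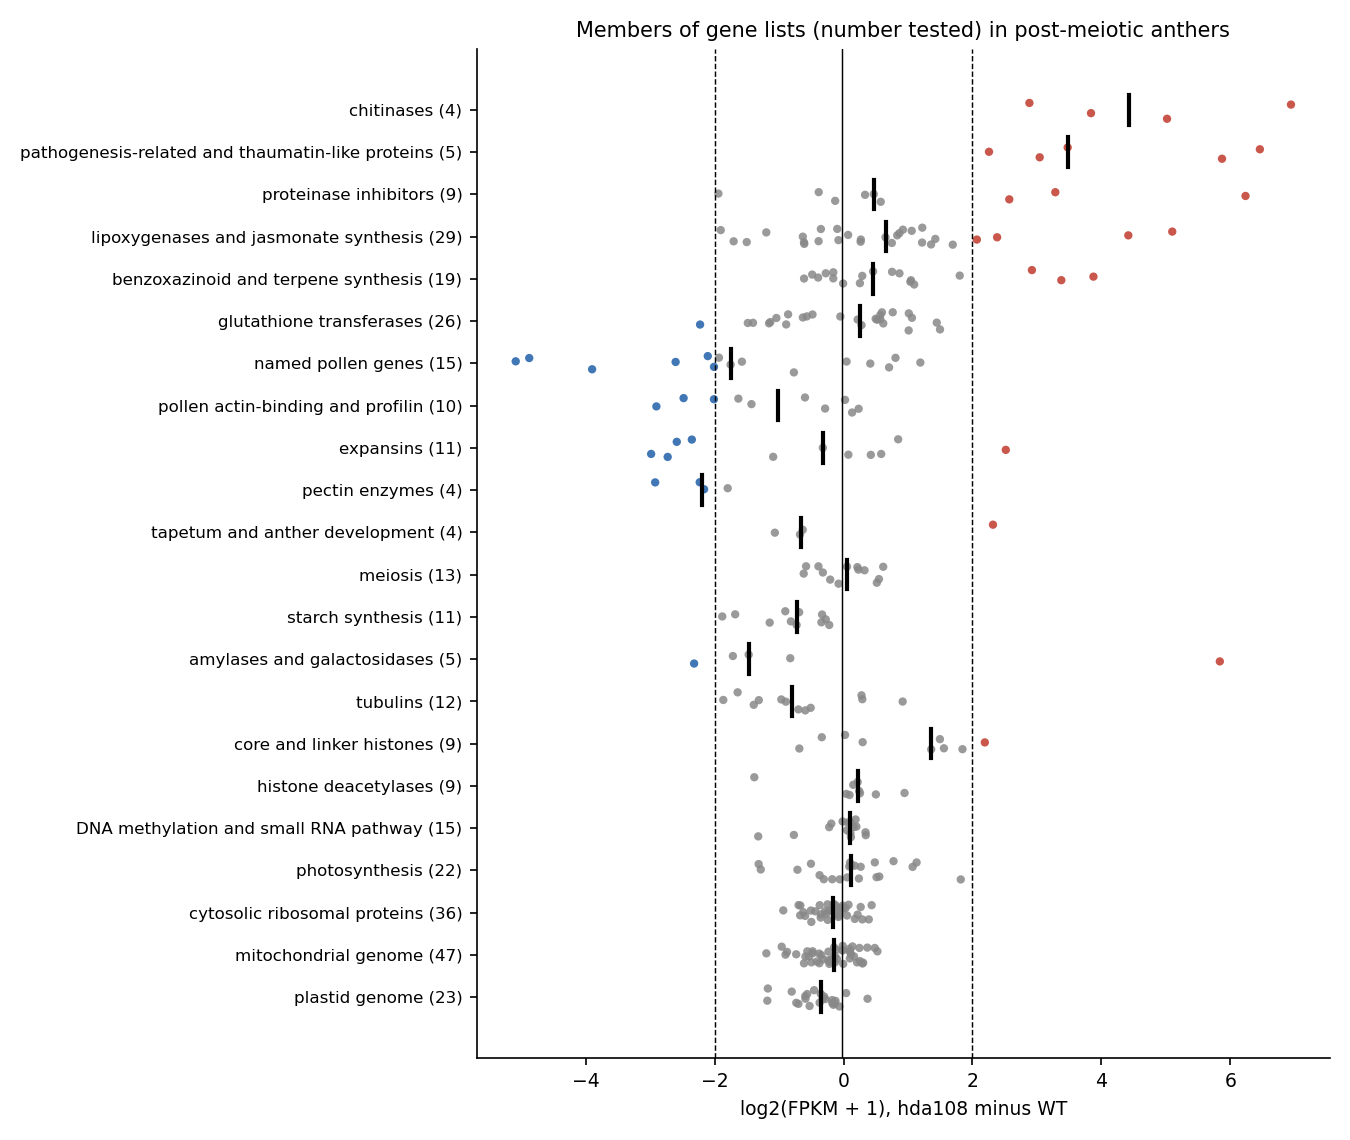
Each point is a tested member of a gene list, at its log2(FPKM + 1) in hda108 minus WT. Thick bars are list medians, the solid line is the median of all genes (-0.03), and dashed lines mark the size rule of 2 in each direction. Chitinase and pathogenesis-related genes lie wholly right of the upper line, while pollen lists, pectin enzymes, starch synthesis and tubulins lie mostly left of the solid line.

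In pigment and phenylpropanoid synthesis, single genes departed in both directions. r1 (listed as R-S), the bHLH regulator that turns on anthocyanin genes, had 6.72 FPKM in hda108 and 168 FPKM in WT, 25-fold lower. A1, the dihydroflavonol reductase gene, had 9.98 FPKM in hda108 and 54.4 FPKM in WT, a call that equal sums ended. c2, a chalcone synthase gene, was higher, with 25.9 FPKM in hda108 and 2.71 FPKM in WT, as was f3h, a flavanone hydroxylase gene, with 11.2 FPKM in hda108 and 1.63 FPKM in WT. CHI, the chalcone isomerase gene that acts between c2 and f3h and the most abundant of the list, was not called, with 266 FPKM in hda108 and 541 FPKM in WT. Of 11 flavonoid genes, 2 were thus higher and 2 lower, and the list median of -0.05 was 0.02 below that of all genes, a sign that equal sums turned. Among 13 lignin and phenylpropanoid genes the only call was comt, the caffeic acid methyltransferase gene (listed as CAOMT), which was lower with 5.10 FPKM in hda108 and 97.9 FPKM in WT. In the cellulose synthase and related list of 20, the only call was Bk2L5, a relative of brittle stalk2, with 0.543 FPKM in hda108 and 44.9 FPKM in WT. The cytochrome P450 gene CYP78A53 was higher, with 6.64 FPKM in hda108 and 0.301 FPKM in WT. Among the 10 named genes farthest below WT were also mlo6 (GRMZM2G325653), of the family whose barley member Mlo is known for powdery mildew susceptibility, with 4.28 FPKM in hda108 and 73.1 FPKM in WT, and amidase1, with 8.19 FPKM in hda108 and 113 FPKM in WT.

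Among chromatin genes, 1 of 9 core and linker histone genes was higher and 0 lower, with a median of 1.36, or 1.41 above that of all genes with equal sums, where 4 were called higher. hon110, a linker histone gene, whose product binds the DNA between nucleosomes, had 49.7 FPKM in hda108 and 10.1 FPKM in WT, 4.92-fold higher. his1a, the most abundant, had 181 FPKM in hda108 and 49.8 FPKM in WT, just short of the rule. his1 and hon101, the other linker histone genes, had 38.8 and 71.8 FPKM in hda108 against 12.5 and 24.8 FPKM in WT (named after their values were seen). Core histone genes were mixed. The 3 IDs named H4C13 had 11.5, 13.9 and 33.5 FPKM in hda108 and 3.87, 11.2 and 42.6 FPKM in WT, and cannot be told apart by name. Apart from HDA108, the 8 histone deacetylase genes were above WT and none was called. Their differences ran from 0.04 (hda113) to 0.95 (hda106) (named after their values were seen). Of the 9 genes 1 was thus below WT, with equal sums as well, against 52.2% of all genes, or 25.5% with equal sums. The most abundant deacetylase gene was HD2b, with 101 FPKM in hda108 and 94.3 FPKM in WT. None of 15 DNA methylation and small RNA pathway genes was called, with a median of 0.11. The most abundant of them was rmr2, with 27.2 FPKM in hda108 and 69.7 FPKM in WT.

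The transcription factor lists held 7 higher (3.18%) and 4 lower (1.82%) of 220 genes, against 1.72% and 4.56% of all genes, or 10 higher and 2 lower with equal sums. Of 31 MADS-box, 40 MYB, 30 bHLH, 16 WRKY, 16 NAC, 34 bZIP, 30 ERF and AP2, and 23 homeobox genes, the higher counts were 0, 1, 1, 0, 0, 2, 1 and 2, and the lower counts were 1, 0, 0, 0, 0, 2, 1 and 0. gt1, a homeobox gene that restrains lateral organ growth (chromosome 1, 23240103 to 23249045), had 56.9 FPKM in hda108 and 1.24 FPKM in WT, 45.8-fold higher. The homeobox gene HB112 had 19.5 FPKM in hda108 and 2.42 FPKM in WT. bHLH123 had 53.3 FPKM in hda108 and 5.71 FPKM in WT, and bZIP113 had 8.98 FPKM in hda108 and 0.198 FPKM in WT. bZIP107 had 3.45 FPKM in hda108 and 0.0349 FPKM in WT. MYB134 had 6.35 FPKM in hda108 and 0.200 FPKM in WT, and EREB71 had 11.6 FPKM in hda108 and 1.13 FPKM in WT. Among the lower factors, bZip112 had 17.4 FPKM in hda108 and 116 FPKM in WT, and EREB179 had 29.1 FPKM in hda108 and 126 FPKM in WT. bZIP45 had 10.5 FPKM in hda108 and 64.2 FPKM in WT, and equal sums ended the calls of EREB179 and bZIP45. The MADS-box gene ZAG5 had 0.203 FPKM in hda108 and 9.97 FPKM in WT. The most abundant MADS-box gene, m16, was level, with 1400 FPKM in hda108 and 1345 FPKM in WT.

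Few genes of the other hormone lists were called, all of them lower in the deposited values, where 4.56% of all genes were lower and 1.72% higher. Of 38 auxin genes, 2 were lower and 0 higher. BIF1 (listed as AUX22), an Aux/IAA repressor of auxin response that acts in forming inflorescence branches, had 32.7 FPKM in hda108 and 240 FPKM in WT. PIN5c, of the auxin carrier family, had 0.675 FPKM in hda108 and 6.15 FPKM in WT. The only call among 14 gibberellin, brassinosteroid and abscisic acid genes was CYP88A1 (the dwarf3 gene), with 1.37 FPKM in hda108 and 9.49 FPKM in WT. Among 28 ethylene and cytokinin genes it was ACS6 of ethylene synthesis, with 13.2 FPKM in hda108 and 61.8 FPKM in WT. BIF1 alone of these 4 was still called with equal sums. No gene among 18 calcium-dependent kinases and calmodulins was called, with a median of -0.36, or 0.31 below that of all genes with equal sums.

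Transport genes split within families. Of 19 aquaporins, which conduct water, 1 was higher and 3 lower. PIP2-4 had 21.5 FPKM in hda108 and 0.140 FPKM in WT, while its relative PIP2-6 had 0.290 FPKM in hda108 and 11.7 FPKM in WT. The most abundant aquaporin, TIP1-2 of the vacuole membrane, had 798 FPKM in hda108 and 4574 FPKM in WT, a call that equal sums ended. Of 31 ion and metal transporter genes, 3 were higher and 3 lower. The potassium transporter gene HAK1 had 219 FPKM in hda108 and 46.0 FPKM in WT, and the phosphate transporter gene pht1 had 18.2 FPKM in hda108 and 2.79 FPKM in WT. In the other direction, the iron-chelate transporter relative ysl17 had 1.62 FPKM in hda108 and 13.5 FPKM in WT, and pht7 had 63.8 FPKM in hda108 and 259 FPKM in WT. The third, HAK19, had 10.8 FPKM in hda108 and 50.5 FPKM in WT. With equal sums ysl17 was still called lower and the other two were not.

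Of 13 genes of the cell number regulator and ARGOS list, families known for effects on cell number and organ size, 1 was higher and 2 were lower, against 1.72% and 4.56% of all genes. CNR3, of the cell number regulator family, had 0.473 FPKM in hda108 and 86.2 FPKM in WT, 182-fold lower, while CNR2 had 10.2 FPKM in hda108 and 0.537 FPKM in WT. ARGOS9 had 0.967 FPKM in hda108 and 20.1 FPKM in WT. Housekeeping lists had no call. None of 36 cytosolic ribosomal protein genes was called. Below WT were 27, or 5 with equal sums, against 52.2% of all genes, or 25.5% with equal sums. The list median was -0.16, and it lay 0.06 below that of all genes with equal sums and above it after quantile normalization. None of 22 DNA replication and cell cycle genes was called, with a median of 0.35. None of 47 mitochondrial or 23 plastid genes that were tested was called, and these genomes held 1.56% and 0.545% of the FPKM in hda108, against 1.3% and 0.541% in WT. All lists together held 866 tested genes, of which 46 were higher (5.31%) and 42 lower (4.85%). The lists were chosen with earlier results of these data known, so these shares are not evidence that the lists stand apart.

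MicroRNA precursor loci are the genes from which short regulatory RNAs are cut. Of 154 loci in the values, 13 were tested, 5 of them higher and 4 lower, against 1.72% and 4.56% of all genes. All 9 called loci were listed at 0 in the other genotype. They entered the comparison only through the genotype where they were high, so these counts are not a result about microRNA precursors. Apart from MIR169i and MIR2118d, the called loci were listed at 0 in both genotypes in mitotic anthers. MIR167a, listed at 0 in hda108 and with 1.84 FPKM in WT, was not called (named after its values were seen). MIR156j was listed with 30.4 FPKM in hda108 and at 0 in WT. MIR167d had 15.3 FPKM in hda108 and was listed at 0 in WT, and the family members MIR169c, MIR169o and MIR169j had 14.3, 8.83 and 6.20 FPKM in hda108 and were listed at 0 in WT. MIR171g was listed at 0 in hda108 and with 86.5 FPKM in WT, MIR2118d at 0 in hda108 and with 11 FPKM in WT, and MIR169i at 0 in hda108 and with 5.36 FPKM in WT. For loci as short as the 112 bp of MIR171g, few fragments can make up such a level, and with depth unknown a 0 does not show that the RNA was absent. Library preparation from total RNA does not measure the mature microRNAs.

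Of the 5 most abundant RNAs of each genotype, both genotypes shared GRMZM2G387360, with 5526 FPKM in hda108 and 8736 FPKM in WT, and the mitochondrial GRMZM5G807592, with 5010 FPKM in hda108 and 7080 FPKM in WT. The highest in hda108 was the unnamed GRMZM2G107839 (chromosome 3, 231911305 to 231912822), with 14478 FPKM in hda108 and 3958 FPKM in WT, 3.66-fold higher though short of the size rule, and past it with equal sums. BURP9 followed, with 8426 FPKM in hda108 and 6323 FPKM in WT, and the fifth, GRMZM2G114356, had 4259 FPKM in hda108 and 3012 FPKM in WT. The highest in WT was GRMZM6G655332, with 3200 FPKM in hda108 and 11624 FPKM in WT. AC187262.4_FG007 (chromosome 1, 184732929 to 184733551), the third in WT, had 113 FPKM in hda108 and 8612 FPKM in WT, 76.4-fold lower. GRMZM2G130055 had 1089 FPKM in hda108 and 6704 FPKM in WT. Apart from BURP9, the gene table used here gives these IDs no symbol.

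Lower genes were unevenly placed along the genome. On chromosome 4, which carries HDA108, 158 of 2404 tested genes were lower (6.57%), against 926 of 21335 (4.34%) on the 9 other numbered chromosomes, whose shares ran from 3.70% on chromosome 1 to 5.10% on chromosome 8. With equal sums the share was 4.49% on chromosome 4 and 1.99% to 3.28% on the others. The higher share of chromosome 4, 2.04%, lay within the range of the others, 1.34% to 2.41%. In windows of 50 Mb along chromosome 4 the lower share was 5.10%, 8.49%, 6.61%, 7.98% and 5.32%, with HDA108 in the second window.

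The contrast was sharper for genes listed at 0. In hda108, 19 genes with at least 5 FPKM in WT were listed at 0 (0.0795% of tested genes), of which 11 lay on chromosome 4 and at most 3 on any other. Of these 19, 12 were also listed at 0 in mitotic hda108 anthers, and 9 of the 12 reached 1 FPKM in mitotic WT anthers. All 9 lay on chromosome 4, between 61122833 and 175761094. From here on, after meiosis stands for the post-meiotic samples alone and does not place the mitotic samples before meiosis. GRMZM2G495171 (82061216 to 82062221) was listed at 0 in hda108 and with 49.7 FPKM in WT after meiosis, and at 0 in hda108 and with 65.7 FPKM in WT at the mitotic stage. AC194356.3_FG002 was listed at 0 in hda108 and with 21.2 FPKM in WT, AC205664.3_FG001 at 0 in hda108 and with 15.2 FPKM in WT, and GRMZM2G181354 at 0 in hda108 and with 12 FPKM in WT (the 4 named after their values were seen). The converse class, listed at 0 in WT with at least 5 FPKM in hda108, held 27 genes (0.113%), 4 of them on chromosome 4 and 5 of them microRNA precursors. Why these genes were listed at 0 was not tested.

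**Figure D4:**
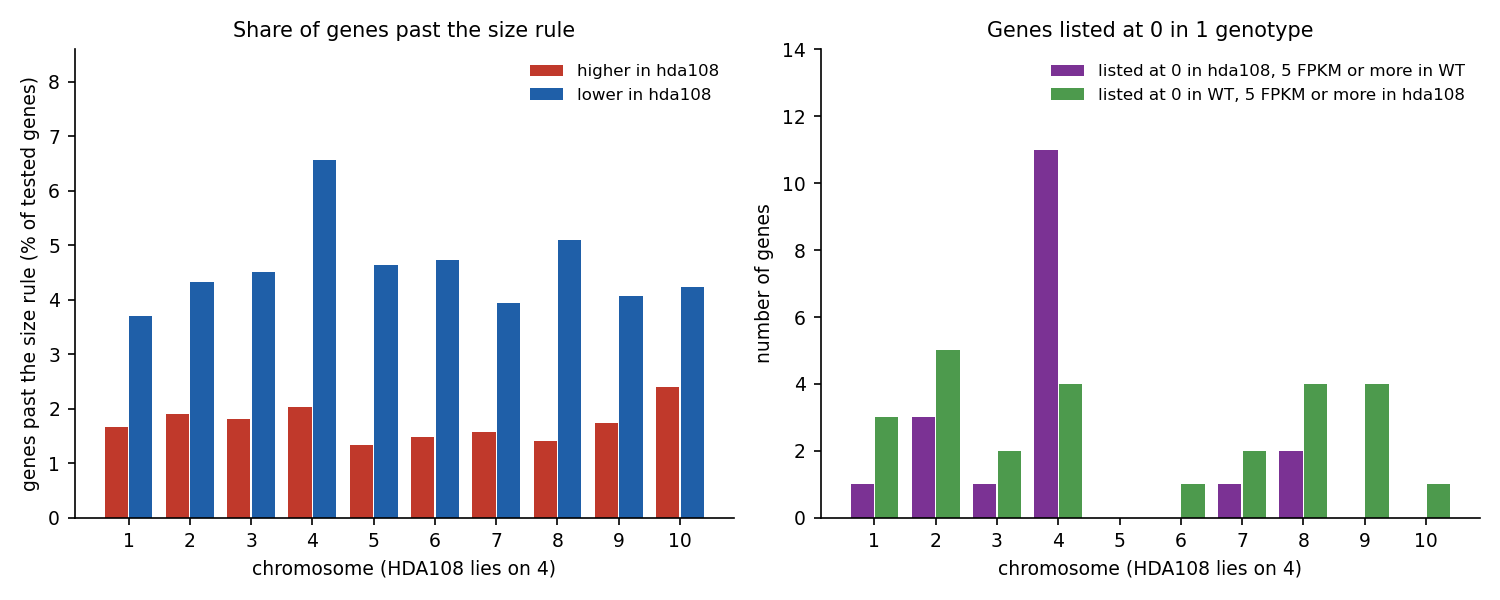
Left, the share of tested genes called higher or lower in hda108 on each numbered chromosome. Right, the number of genes listed at 0 in hda108 with 5 FPKM or more in WT (left bars) and the converse (right bars). Chromosome 4 has the largest lower share, 6.57%, and 11 of the 19 genes listed at 0 in hda108.

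Locus span and RefSeq listing did not enter the rule directly. FPKM is scaled to transcript length, so span is not independent of the level. The median span of the gene locus was 1593.5 bp for higher genes and 1949 bp for lower genes, against 3443 bp for all tested genes. Of the higher genes, 63.7% had an ID that the RefSeq gene table lists, near the 66.6% of all tested genes. Of the lower genes 48.1% did, so a larger share of the lower set consisted of gene models that this table does not list.

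The same genes were then read in mitotic anthers, measured in separate libraries, where 1.54% of these genes were higher and 8.15% lower. Mitotic differences were taken from the deposited values alone and were not computed with equal sums. Of the 410 genes higher after meiosis, 374 (91.2%) stood above WT at the mitotic stage by any amount, against 49.2% of all genes, and 176 were past the size rule, 42.9% of the post-meiotic set and 48.0% of the mitotic one. Of the 1090 lower genes, 1070 (98.2%) stood below WT at the mitotic stage, against 50.6% of all genes, and 870 were past the rule, 79.8% of the post-meiotic set and 44.6% of the mitotic one. The median level of the lower genes was 6.21 FPKM in hda108 and 60.6 FPKM in WT after meiosis, and 15.5 FPKM in hda108 and 129 FPKM in WT at the mitotic stage. For the higher genes it was 15.6 FPKM in hda108 and 1.32 FPKM in WT after meiosis, and 8.48 FPKM in hda108 and 1.27 FPKM in WT at the mitotic stage. CNR3, at 0.473 FPKM in hda108 after meiosis, had 67.7 FPKM in hda108 and 396 FPKM in WT at the mitotic stage, and PCP had 882 FPKM in hda108 and 10802 FPKM in WT. chiA had 370 FPKM in hda108 and 49.0 FPKM in WT there, a smaller difference than after meiosis. How far the difference itself changes with the stage was not tested.

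**Figure D5:**
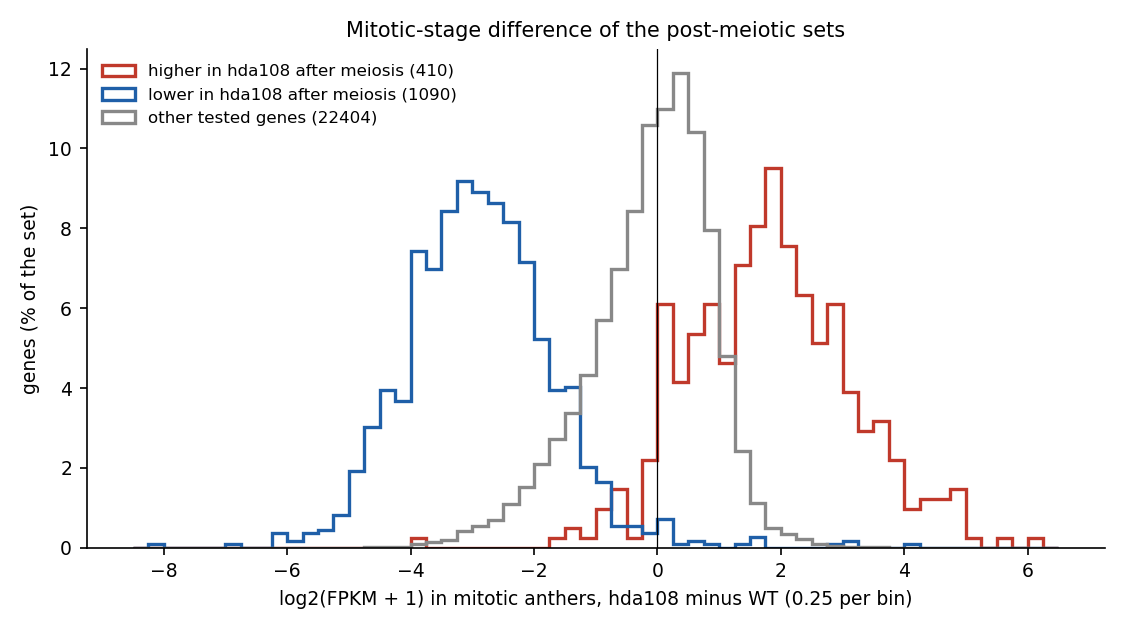
Distribution of log2(FPKM + 1) in hda108 minus WT in mitotic anthers, as percent of each set, for the genes called higher (410) or lower (1090) after meiosis and for the other tested genes (22404). The lower set lies almost wholly left of 0 and the higher set mostly right of it. Values are as deposited, without rescaling.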

How the data were processed

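Anthers of 4 groups were sequenced, with 2 libraries each, and the 2 post-meiotic groups were compared here. The authors deposited FPKM, and per the file headers each gene has 1 such value in each group. Per the submitters' processing notes, the tools were TopHat2 2.0.13, Cufflinks and Cuffdiff 2.2.1, with CASAVA 1.8, Trimmomatic 0.33 and SAMtools, and the genome build was B73 RefGen_v3. The notes assign them no step. The sources used here state neither how the 2 libraries were combined and the groups scaled nor whether gene starts count from 0 or 1. Values headed as homozygous were taken as hda108, the only mutant genotype in the labels. If the deposited values were scaled on reads mapped, the different FPKM sums could shift every difference. Each post-meiotic difference was therefore also computed with both sums set to 1000000, while mitotic differences were not.

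Genes with at least 1 FPKM in either group were kept, 1 was added before the log2 transform, and a difference of 2 was the size rule. No p-value could be given. Symbols came from RefSeq (Zm-B73-REFERENCE-NAM-5.0). By gene ID 19060 genes matched, 521 of them to several genes, and 2805 had a name. The 52 gene lists were found by symbol or synonym, and 46 names that share only a symbol with the intended gene were left out after the name table was seen. The comparison, its members and the lists were chosen with earlier results of these data known. Named genes are HDA108, the 10 genes farthest above and the 10 farthest below WT that are called, carry a name and reach 5 FPKM in a genotype, the most abundant member of each list with at least 3 tested members and up to 2 called members per direction, called microRNA precursors with at least 5 FPKM, and the 5 most abundant genes per genotype. Others are marked as chosen with their values known. Python 3.11.15, numpy 2.4.6, pandas 2.3.3 and matplotlib 3.10.9 were used.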

Additional observations from a re-analysis of the deposited data

Results flagged for a closer look

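These genes differed in opposite directions at the 2 stages. They were singled out because the difference in post-meiotic anthers passed the size rule and the one in mitotic anthers had the other sign, with a size of at least 1 for the genes named by rule and of at least 2 for the rest. The difference between the stages was not tested, and mitotic differences were not computed with equal sums. f3h (GRMZM2G062396), a flavanone hydroxylase gene, had 11.2 FPKM in hda108 and 1.63 FPKM in WT after meiosis, a log2 difference of 2.21, and 2.47 FPKM in hda108 and 9.42 FPKM in WT at the mitotic stage, a log2 difference of -1.59. The precursor MIR2118d was listed at 0 in hda108 and with 11 FPKM in WT after meiosis, a log2 difference of -3.59, and with 6.59 FPKM in hda108 and at 0 in WT at the mitotic stage. GRMZM2G051898 had 10.5 FPKM in hda108 and was listed at 0 in WT after meiosis, a log2 difference of 3.52, and had 0.0615 FPKM in hda108 and 14.3 FPKM in WT at the mitotic stage. The other 3 genes were lower after meiosis and higher at the mitotic stage. GRMZM2G002815 had a log2 difference of -2.93 after meiosis, with 2.06 FPKM in hda108 and 22.4 FPKM in WT, and 3.21 at the mitotic stage. GRMZM2G410865 had a log2 difference of -2.28, with 1.29 FPKM in hda108 and 10.1 FPKM in WT, and 3.02 at the mitotic stage. GRMZM5G873249 had a log2 difference of -3.82, listed at 0 in hda108 and with 13.1 FPKM in WT, and 4.24 at the mitotic stage.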

How the results depend on the processing

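With both genotypes rescaled to equal sums, 823 genes were higher and 663 lower in hda108 and the median of all genes was 0.50. The median was 0.21 after division by the 75th percentile and 0.10 after quantile normalization. With the sum counted without genes at 1000 FPKM or more it was 0.34, and 820 genes were higher. A pseudocount of 0.1 gave 1080 higher genes, and one of 5 gave 131 higher and 666 lower. A size rule of 1 gave 1809 higher and 3149 lower genes, and one of 3 gave 134 and 378. The other counts, including those without organelle genes (410 higher and 1090 lower) and without chromosome 4 (361 and 932), stayed within 1.5 times the reported ones. These last alternatives were chosen after seeing the data. Of the 79 called genes named by rule, 16 were no longer called with equal sums, 12 after quantile normalization and 30 with a pseudocount of 5, and none changed sign. Quantile normalization turned the median of 11 of 50 lists to the other side of that of all genes, and equal sums that of 1, the flavonoid list.

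No paired analysis was possible because the deposited values carry 1 value per group and no replicate numbers. Leaving out 1 replicate was planned and not run for the same reason. Depth is unknown, so no counting interval can be set on low values or on values of 0, which bears most on short loci.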
